A study of Homo sapiens with 9 samples.

Results

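The enzymes and partner proteins that write, copy and remove DNA methylation, together with EZH2, were followed across 9 RNA-seq libraries of TRIB3 knockdown in HepG2 cells, a human liver cancer line. The 9 genes were chosen by name for what their proteins do, with earlier results of these data known: DNMT1, UHRF1 and HELLS for the copying of methylation, DNMT3A and DNMT3B for new methylation, TET1, TET2 and TET3 for its removal, and EZH2 for histone methylation. They are 9 of 24204 gene symbols in the expression table, and all 9 were among the 11265 symbols expressed well enough to be tested. Cells carried lentivirus with a control hairpin (shCtrl) or with either of 2 hairpins against TRIB3 (shTRIB3-1 and shTRIB3-2), with 3 libraries per hairpin. TRIB3 is a pseudokinase induced when amino acids run short. All groups shared the 48 h of infection and the 48 h of puromycin that followed, so every library came from cells that had taken up a vector. The labels do not say whether the 3 libraries of a hairpin came from separate cultures, so p-values measure the spread between these libraries, which may be technical. The labels describe high-glucose medium with serum. The RNA-seq methods of the study, which cover more than these libraries, describe cells without glutamine. Its discussion, however, places altered repair gene expression after TRIB3 depletion in cells that were not deprived of glutamine. The medium at harvest therefore remains uncertain.

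Methylation of cytosine in CpG pairs is lost from the new strand each time DNA is copied. UHRF1 recognises the hemimethylated CpG behind the replication fork and brings DNMT1, which restores the mark, and HELLS is a chromatin remodeller that opens packed DNA to that machinery. DNMT3A and DNMT3B place methyl groups where there were none, and the TET enzymes oxidise methylcytosine as the opening step of its removal. EZH2 is the catalytic subunit of Polycomb repressive complex 2 (PRC2), which methylates histone H3 on lysine 27, and it is abundant in dividing cells, whereas its paralogue EZH1 is found in resting cells too.

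On GRCh38 (GENCODE), DNMT1 spans chr19:10133342-10231286 on the minus strand, UHRF1 spans chr19:4903080-4962154 on the plus strand and HELLS spans chr10:94545329-94613905 on the plus strand. DNMT3A lies at chr2:25227855-25342590 (minus) and DNMT3B at chr20:32762385-32809359 (plus). The TET genes, all on the plus strand, lie at chr10:68560337-68694487 (TET1), chr4:105145875-105279816 (TET2) and chr2:73984910-74108176 (TET3), and EZH2 lies at chr7:148807257-148884321 (minus). All 9 are protein-coding genes.

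The TRIB3 sequences that the hairpins match were taken from the list of oligonucleotides in the study, with its hairpin numbers read as the numbers in the labels. Both lie in coding exons of TRIB3 on the plus strand (GRCh38), at chr20:388072-388092 for shTRIB3-1 and at chr20:391473-391493 for shTRIB3-2. They are shown because the response of several genes below differed between them.
shTRIB3-1: tggatgacaacttagataccg
shTRIB3-2: gccgtgctcttccgccagatg
The longest run of bases that the shTRIB3-1 target shared with a transcript of any of the 9 genes was 10 bases, and for shTRIB3-2 it was 9 bases. Runs of 10 bases of the shTRIB3-1 target, in DNMT1, HELLS and TET3, were held by 3.74% of 19676 coding genes. For UHRF1 no run above the search floor of 7 bases was found with the shTRIB3-1 target. With the shTRIB3-2 target its run was 9 bases, and 14.4% of coding genes hold a run that is as long.

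The knockdown and the identity of the cells were checked first. TRIB3 was at 66.8 ± 1.08 FPKM (a fragment count corrected for gene length and sequencing depth) in the controls, 33.6 ± 0.760 under shTRIB3-1 and 20.5 ± 0.171 under shTRIB3-2 (mean ± SD, n = 3), so 50.3% and 30.8% of the control level remained. The libraries held 34206726 to 36311029 fragments. All 10 hepatocyte markers examined were at 1 FPKM or more in every library, and their summed level was 7209 to 7874 FPKM in the controls, 7805 to 8220 under shTRIB3-1 and 9750 to 10020 under shTRIB3-2. Most of this sum was ALB (4929 to 5397 FPKM in shCtrl), and single markers went both ways. TTR went from 26.22 to 30.9 FPKM in shCtrl to 58.55 to 59.87 in shTRIB3-1 and 90.14 to 92.88 in shTRIB3-2. APOB went from 831.1 to 848.1 FPKM to 664.3 to 695.5 and 772.9 to 808.2, and GPC3 from 10.73 to 12.05 FPKM to 7.645 to 8.39 and 8.614 to 9.247. Of the markers of other lineages, the pan-leukocyte gene PTPRC reached at most 0.00448 FPKM and the T-cell gene CD3E at most 0.0419. ACTA2, an actin of smooth muscle, was at 39.1 to 62.9 FPKM.

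The genes that copy DNA methylation fell with both hairpins, and UHRF1 fell furthest. UHRF1 was at 8.28, 8.50 and 8.32 FPKM in the control libraries, 1.58, 1.66 and 1.52 FPKM in those of shTRIB3-1 and 0.518, 0.430 and 0.455 FPKM in those of shTRIB3-2. The 3 groups were far apart and did not overlap, and 18.97% of the control mean remained with shTRIB3-1 and 5.59% with shTRIB3-2. The shTRIB3-2 values rest on 76 to 90 fragments per library, against 1504 to 1567 in shCtrl. In the limma fit across all tested genes, UHRF1 stood at a log2 fold change of -2.33 for shTRIB3-1 (adjusted p = 2.33e-10) and of -3.90 for shTRIB3-2 (adjusted p = 2.65e-12), each with an SE of 0.0856. Only 26 of the tested genes had a lower log2 fold change than UHRF1 with shTRIB3-1, and only 13 with shTRIB3-2. Between the hairpins the log2 difference was -1.57 (adjusted p = 6.97e-08), and it was -0.82, short of the fold threshold used for a call, when 1 instead of 0.1 was added to FPKM before taking the log.

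DNMT1, the maintenance methyltransferase itself, was the most abundant of the 9 genes per length in all groups. It was at 19.95, 19.89 and 20.01 FPKM in the control libraries, 9.01, 8.83 and 9.24 FPKM in those of shTRIB3-1 and 7.43, 6.90 and 7.70 FPKM in those of shTRIB3-2. Every knockdown library lay below every control library, and the shTRIB3-2 libraries lay below those of shTRIB3-1. DNMT1 fell by 1.14 on the log2 scale with shTRIB3-1 (adjusted p = 5.16e-10) and by 1.43 with shTRIB3-2 (adjusted p = 5.52e-11), each with an SE of 0.0457. The difference between the hairpins was small beside the fall itself, at a log2 value of -0.30 (adjusted p = 0.00026).

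HELLS, the remodeller, followed the same order of groups. Its levels were 5.18, 5.52 and 5.43 FPKM in the control libraries, 1.54, 1.56 and 1.71 FPKM in those of shTRIB3-1 and 1.05, 1.06 and 1.02 FPKM in those of shTRIB3-2. The log2 fold changes were -1.69 (SE 0.0767, adjusted p = 1.45e-09) and -2.26 (SE 0.0767, adjusted p = 8.92e-11), and the difference between the hairpins was -0.57 (adjusted p = 9.28e-05). These losses were unequal within the maintenance group: FPKM of UHRF1 was 0.419 ± 0.00696 of that of DNMT1 in the controls, 0.176 ± 0.0120 under shTRIB3-1 and 0.0638 ± 0.00549 under shTRIB3-2 (mean ± SD, n = 3).

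**Figure D1:**
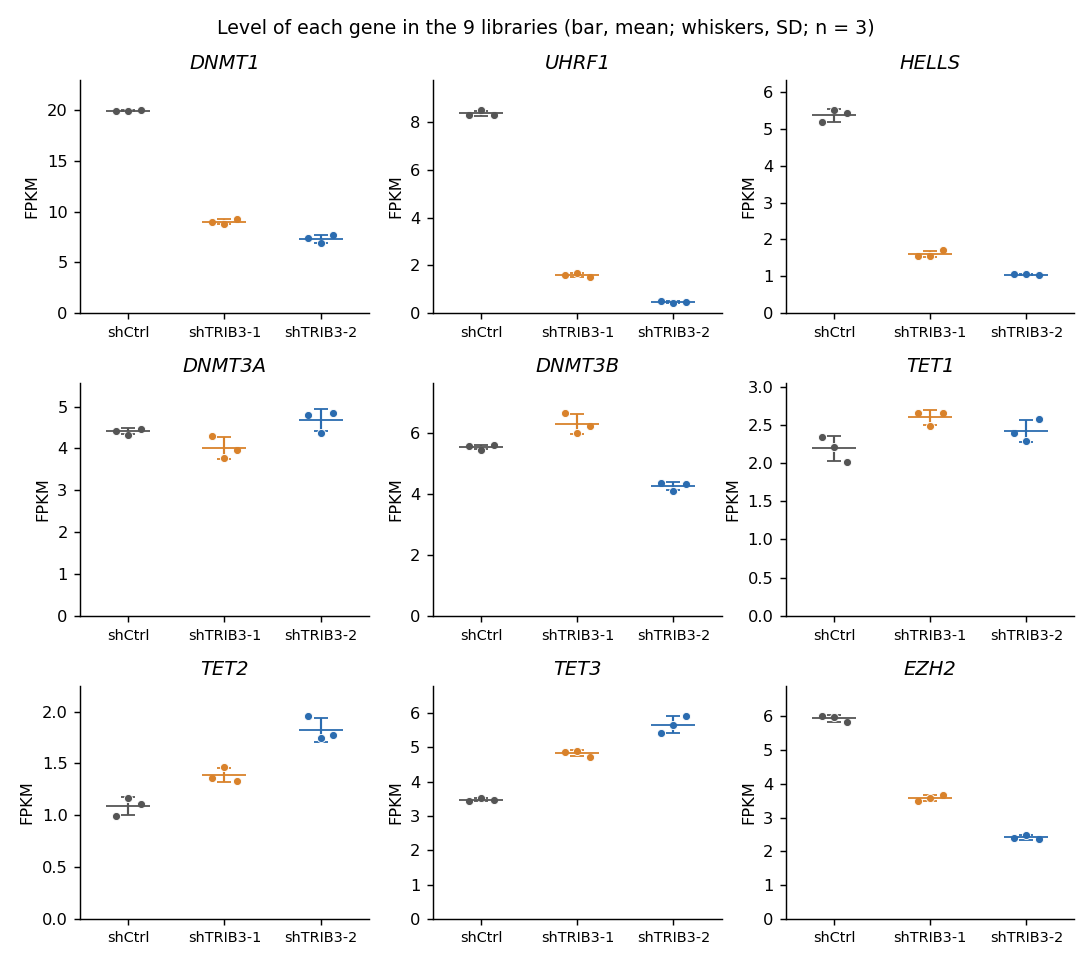
Level of each of the 9 genes in FPKM (vertical axis, from 0 and scaled per gene) in the 3 libraries of each hairpin group (horizontal axis). Points are libraries, horizontal bars are group means and whiskers are SD. The control libraries of UHRF1 sit between 8.28 and 8.50 FPKM and those of shTRIB3-2 between 0.430 and 0.518, whereas the groups of DNMT3A lie close together and those of TET2 and TET3 step upwards.

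The de novo enzymes stayed much closer to the control level. DNMT3A was at 4.42, 4.33 and 4.47 FPKM in the control libraries, 4.30, 3.77 and 3.98 FPKM in those of shTRIB3-1 and 4.80, 4.38 and 4.85 FPKM in those of shTRIB3-2. Its log2 fold change was -0.13 with shTRIB3-1 (95% confidence interval -0.28 to 0.01, adjusted p = 0.0822) and 0.08 with shTRIB3-2 (-0.06 to 0.22, adjusted p = 0.27). Neither passed the test, and both intervals stop short of the change of DNMT1. With shTRIB3-1 the adjusted p was 0.0352 after rescaling to TPM (a unit that sums to the same total in every library), 0.0247 with limma-voom on recovered fragments and 0.0339 without library 1 of shTRIB3-1, and with shTRIB3-2 it was 0.0496 with median centring and 0.0327 with quantile normalization. Between the hairpins DNMT3A was higher with shTRIB3-2, by a log2 value of 0.22 (adjusted p = 0.0178), but the adjusted p was 0.0723 without library 2 of shTRIB3-1, 0.0615 without library 1 of shTRIB3-2 and 0.0629 without library 3 of shTRIB3-2.

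DNMT3B passed the test in opposite directions with the 2 hairpins. It was at 5.58, 5.46 and 5.60 FPKM in the control libraries, 6.66, 6.02 and 6.22 FPKM in those of shTRIB3-1 and 4.37, 4.10 and 4.33 FPKM in those of shTRIB3-2. All shTRIB3-1 libraries were above the controls and all shTRIB3-2 libraries below them. It rose with shTRIB3-1 by a log2 value of 0.18 (SE 0.0553, adjusted p = 0.0112) and fell with shTRIB3-2, at -0.37 (SE 0.0553, adjusted p = 5.54e-05), and the direct difference between the hairpins was -0.55 (adjusted p = 9.13e-06). The rise with shTRIB3-1 was the less firm side, with an adjusted p of 0.0562 without library 1 of shTRIB3-1 and 0.0931 after rescaling to TPM. The fall with shTRIB3-2 had an adjusted p of at most 0.000367 in all alternatives.

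The balance among the DNA methyltransferase transcripts moved accordingly. DNMT1 made up 66.7% ± 0.262 of the summed FPKM of DNMT1, DNMT3A and DNMT3B in the controls, 46.7% ± 1.36 under shTRIB3-1 and 45.1% ± 0.478 under shTRIB3-2 (mean ± SD, n = 3). The ratio of DNMT3B to DNMT3A was 1.26 ± 0.00623 in the controls, 1.57 ± 0.0239 under shTRIB3-1 and 0.913 ± 0.0212 under shTRIB3-2, so the hairpins lay on either side of the control. The ranges of this ratio did not overlap between any of the groups.

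The TET enzymes lay on the other side of zero from the maintenance genes. TET3 was at 3.43, 3.51 and 3.46 FPKM in the control libraries, 4.86, 4.89 and 4.73 FPKM in those of shTRIB3-1 and 5.42, 5.64 and 5.91 FPKM in those of shTRIB3-2. The groups did not overlap, and TET3 rose by log2 values of 0.46 (SE 0.0545, adjusted p = 7.59e-06) and 0.69 (SE 0.0545, adjusted p = 1.89e-07). It was higher with shTRIB3-2 than with shTRIB3-1 by 0.22 on the log2 scale (adjusted p = 0.00551). TET2, often mutated in blood cancers, was the least abundant of the 9 in shCtrl, at 0.993, 1.16 and 1.11 FPKM. It was at 1.36, 1.47 and 1.33 FPKM in shTRIB3-1 and at 1.96, 1.74 and 1.78 FPKM in shTRIB3-2. It too rose in non-overlapping steps, by log2 values of 0.33 (SE 0.0995, adjusted p = 0.0105) and 0.70 (SE 0.0995, adjusted p = 3.93e-05), with 0.37 between the hairpins (adjusted p = 0.00927).

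TET1 changed least among the 3 TET genes with shTRIB3-2, where its group overlapped the controls. Its levels were 2.34, 2.22 and 2.01 FPKM in the control libraries, 2.65, 2.49 and 2.65 FPKM in those of shTRIB3-1 and 2.39, 2.29 and 2.57 FPKM in those of shTRIB3-2. With shTRIB3-1 it rose by a log2 value of 0.24 (SE 0.0817, adjusted p = 0.0195), with an adjusted p of 0.057, 0.0584 and 0.0898 when library 1 or 3 of shTRIB3-1 or library 3 of shCtrl was left out, and of 0.0811 after rescaling to TPM. With shTRIB3-2 the log2 fold change was 0.14 (95% confidence interval -0.04 to 0.31, adjusted p = 0.151, but 0.0373 with median centring, 0.0197 with quantile normalization and 0.0376 with limma-voom), and the hairpins differed by -0.10 (-0.28 to 0.08, adjusted p = 0.334). Summed over TET1, TET2 and TET3, the level was 6.75 ± 0.155 FPKM in the controls, 8.81 ± 0.0868 under shTRIB3-1 and 9.90 ± 0.320 under shTRIB3-2 (mean ± SD, n = 3). Over the same groups the summed FPKM of the 3 DNA methyltransferases was 29.9 ± 0.205, 19.3 ± 0.679 and 16.3 ± 0.795. The ratio of the TET sum to this sum was therefore 0.226 ± 0.00668 in the controls, 0.456 ± 0.0168 under shTRIB3-1 and 0.608 ± 0.0202 under shTRIB3-2, as ratios of transcript levels and not of enzyme activity.

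**Figure D2:**
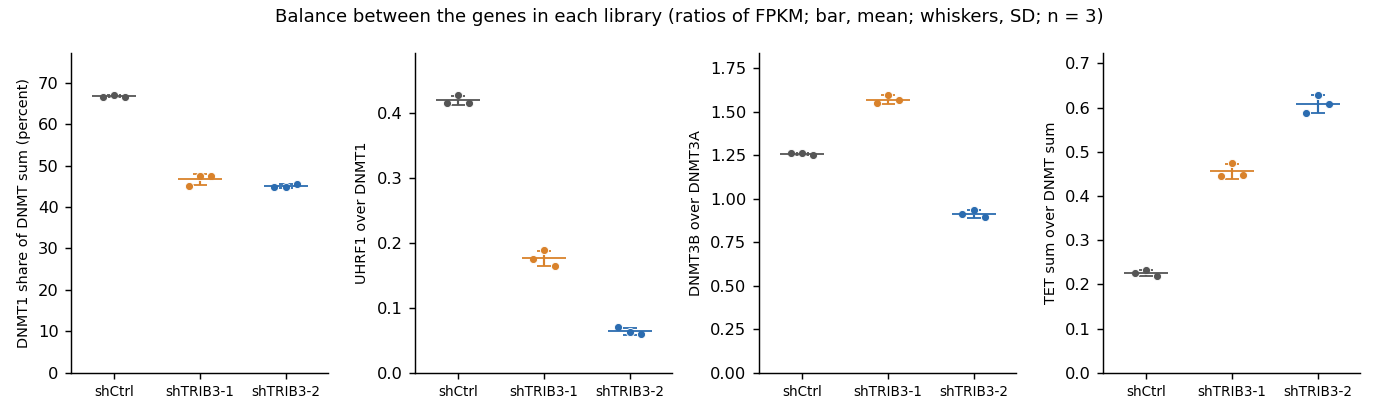
Ratios of FPKM between the genes (vertical axes, from 0) in the 3 libraries of each hairpin group (horizontal axes), with group means as bars and SD as whiskers. The share of DNMT1 and the ratio of UHRF1 to DNMT1 are lower in both knockdown groups, the ratio of DNMT3B to DNMT3A is 1.57 with shTRIB3-1 and 0.913 with shTRIB3-2 around 1.26 in shCtrl, and the ratio of TET to DNMT sums climbs from 0.226 to 0.608.

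EZH2, which acts on histones and not on DNA, moved with the maintenance genes. It was at 6.01, 5.99 and 5.83 FPKM in the control libraries, 3.51, 3.59 and 3.68 FPKM in those of shTRIB3-1 and 2.40, 2.49 and 2.35 FPKM in those of shTRIB3-2. The groups did not overlap, and the log2 fold changes were -0.71 (SE 0.0571, adjusted p = 2.4e-07) and -1.27 (SE 0.0571, adjusted p = 1.09e-09). The hairpins differed by -0.55 (adjusted p = 1.15e-05). The paralogue EZH1, at 3.73 FPKM in shCtrl, rose slightly, by 0.27 (adjusted p = 0.00749) and 0.22 (adjusted p = 0.0209) on the log2 scale. The ratio of EZH2 to EZH1 was 1.60 ± 0.118 in the controls, 0.798 ± 0.0112 under shTRIB3-1 and 0.557 ± 0.0654 under shTRIB3-2 (mean ± SD, n = 3).

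**Figure D3:**
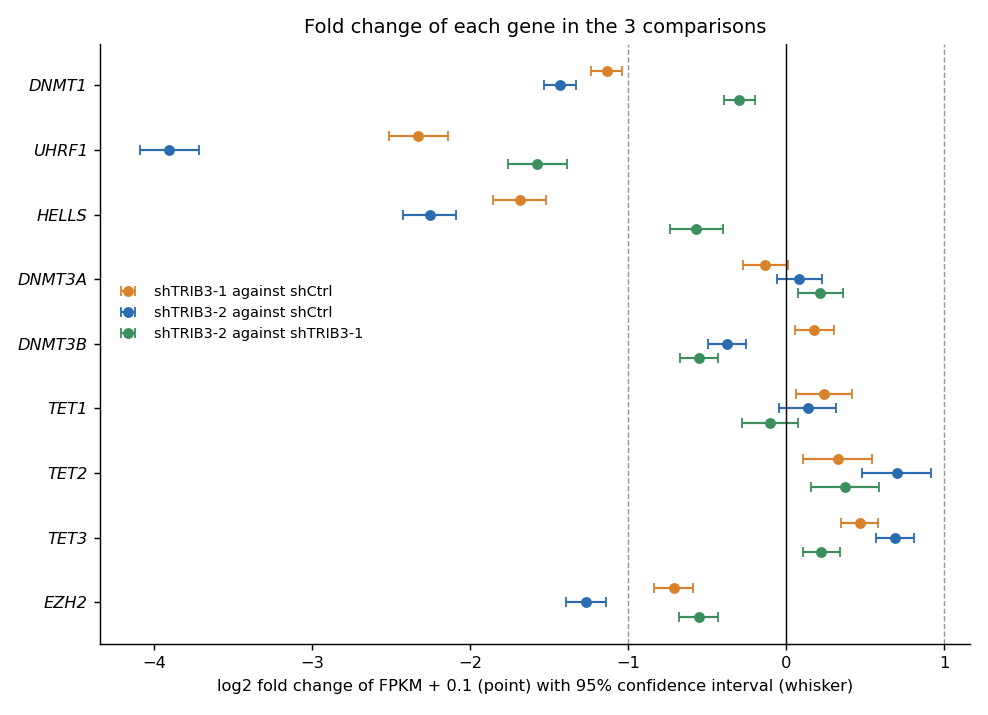
Log2 fold change of FPKM + 0.1 (horizontal axis, points) with its 95% confidence interval (whiskers) for each of the 9 genes (vertical axis) in the 3 comparisons, with dashed lines at 1 and -1. UHRF1, HELLS, DNMT1 and EZH2 lie left of 0 in all 3 comparisons, TET2 and TET3 lie right of 0, and DNMT3B lies right of 0 with shTRIB3-1 and left with shTRIB3-2.

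Counted together, 8 of the 9 genes passed an adjusted p under 0.05 with shTRIB3-1, against 74.4% of all tested genes. Of these 4 were higher, against 32.9% of tested genes, and 4 lower, against 41.5%. With shTRIB3-2, 7 of the 9 passed, against 75.9%, of which 2 were higher, against 35.4%, and 5 lower, against 40.5%. The share that passed was thus near that of the transcriptome. A change of more than 1 on the log2 scale was less common. It was met by 3 of the 9 genes with shTRIB3-1 (DNMT1, UHRF1 and HELLS) against 11.5% of tested genes, and by 4 of the 9 with shTRIB3-2 (the same 3 and EZH2) against 12.3%. All of these were lower, for which the shares of all tested genes were 6.1% and 6.27%, where 5.39% and 6.06% of tested genes were higher. Both comparisons use the same control libraries. Between the hairpins 8 of the 9 genes passed an adjusted p under 0.05, against 45.8% of tested genes, with 3 higher under shTRIB3-2, against 25.1%, and 5 lower, against 20.7%. UHRF1 alone among the 9 also differed by more than 1 on the log2 scale, against 2.08% in either direction, 1.79% lower and 0.284% higher. The groups did not overlap for all 9 genes with shTRIB3-1, for 7 with shTRIB3-2 and for 8 between the hairpins, beside 77.2%, 77.4% and 54.5% of tested genes.

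Because of these changes the order of the 9 genes by FPKM differed between groups. In shCtrl the order was DNMT1, UHRF1, EZH2, DNMT3B, HELLS, DNMT3A, TET3, TET1 and TET2, where only DNMT3B and HELLS overlapped. In shTRIB3-1 it was DNMT1, DNMT3B, TET3, DNMT3A, EZH2, TET1, HELLS, UHRF1 and TET2, where HELLS and UHRF1 overlapped. In shTRIB3-2 it was DNMT1, TET3, DNMT3A, DNMT3B, TET1, EZH2, TET2, HELLS and UHRF1, where TET1 and EZH2 overlapped. UHRF1 went from the rank just below DNMT1 to the lowest of all. These orders depend on the gene lengths behind FPKM, which worked out at 4630 bases for DNMT3B and 16852 for TET1, the shortest and the longest of the 9. The length for TET1 is longer than its 9612 bases of exon in GENCODE, and on that length its level, the TET sum and the ratio of the TET to the DNMT sum would be higher in every group and its rank could change, while its ratio between groups would not. Other lengths differ too. TET3 has 14786 against 12943 bases of exon. Against the longest transcript, HELLS has 13611 against 5558 bases and DNMT1 5283 against 7157. The ranks of these genes, the rank of UHRF1 in shCtrl and the sums and ratios between genes could therefore change as well.

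The genes that fell are known to be transcribed most in dividing cells, so all 9 were set beside genes of the S phase. With the 9 genes left out, 40 S phase genes were tested, and 38 fell with shTRIB3-1 and 40 with shTRIB3-2 at an adjusted p under 0.05. Their median log2 fold change was -1.57 with shTRIB3-1 and -2.37 with shTRIB3-2, beside -0.06 and -0.03 over all tested genes. In single libraries the median relative to the control mean lay between -1.61 and -1.48 in shTRIB3-1 and between -2.43 and -2.19 in shTRIB3-2. Genes of the G2 and M phases fell as broadly, with 51 of 52 lower with shTRIB3-1 and 52 of 52 with shTRIB3-2 and medians of -1.72 and -2.71. MCM5, a subunit of the replicative helicase, fell by 2.12 and 3.91 on the log2 scale, and AURKB, a mitotic kinase, by 2.32 and 4.67. In bulk RNA, fewer cycling cells and less RNA of these genes per cell cannot be told apart.

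Against the S phase genes, UHRF1 was near the extreme and DNMT1 and EZH2 were not. Only 1 of the 40 S phase genes fell further than UHRF1 with each hairpin. For HELLS, 13 fell further with shTRIB3-1 and 21 with shTRIB3-2, so its change lay near the middle of the S phase genes. For DNMT1, 29 and 30 of the 40 fell further, and for EZH2, 36 and 31. DNMT3A, DNMT3B and the TET genes lay at the upper edge, with at least 38 of the 40 S phase genes below each of them. The part of the cell cycle genes in the fall of UHRF1, HELLS, DNMT1 and EZH2 was not tested.

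**Figure D4:**
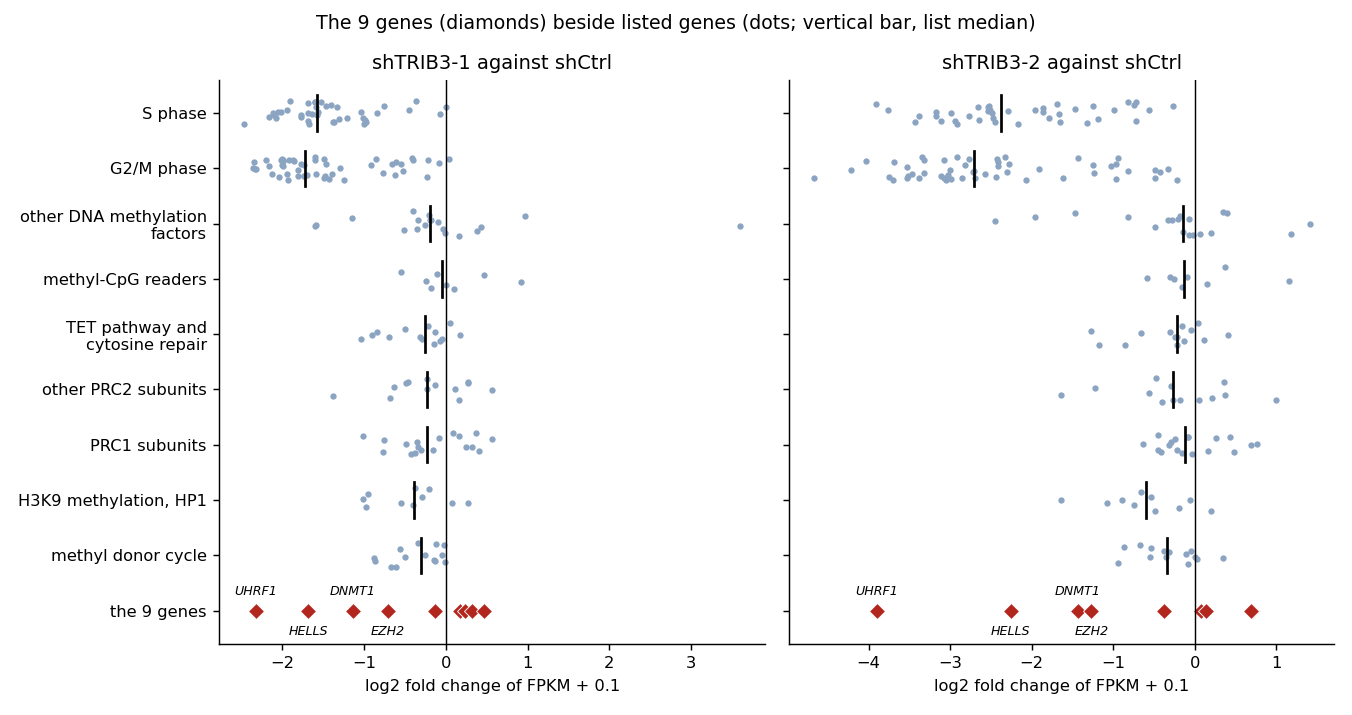
Log2 fold change of FPKM + 0.1 (horizontal axes) with shTRIB3-1 (left) and shTRIB3-2 (right) for the 9 genes (diamonds, with the 4 that fell with both hairpins named) and for genes of other lists (dots, spread vertically for legibility, with list medians as vertical bars). UHRF1 lies at the low end of the S phase genes, whose medians are -1.57 and -2.37. The medians of the G2/M phase genes are -1.72 and -2.71, while those of the remaining lists drawn here lie between -0.60 and -0.05.

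The libraries also gave the genes whose levels ran most closely with each of the 9, by the Pearson correlation of log2 values over the 9 libraries. As these libraries form 3 groups, r mainly reflects the 3 group means and is given as a description. DNMT1 ran closest to CCNA2, the cyclin of S phase and G2 (r = 0.9993), and UHRF1 to CDC6, which loads the replicative helicase (r = 0.9996). EZH2 ran closest to CDCA8, a subunit of the mitotic chromosomal passenger complex (r = 0.9993). HELLS ran closest to PSAT1, an enzyme of serine synthesis (r = 0.9991), DNMT3B to SLC30A3, a zinc transporter (r = 0.9851), and DNMT3A to CYP4V2, a fatty acid hydroxylase (r = 0.9718). MYC was also among the 3 genes closest to DNMT3B (r = 0.9831), with log2 fold changes of 0.16 with shTRIB3-1 and -0.55 with shTRIB3-2. TET2 ran closest to GLRX2, a mitochondrial glutaredoxin (r = 0.9977), TET3 to CSGALNACT2, an enzyme of chondroitin sulphate synthesis (r = 0.9974), and TET1 to TMEM184B (r = 0.9458). High values were common for some genes, with 1298 tested genes above r = 0.95 for DNMT1 and 891 for UHRF1, while 0 reached it for TET1, so being close to DNMT1 singles out little.

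The promoters of the 9 genes were read for short motifs of cell cycle regulators, as DNMT1, UHRF1, HELLS and EZH2 moved together. RefSeq windows from 250 bases before to 50 bases after each annotated start (GRCh38.p14) were found for all 9 genes. The E2F-type letters searched, on both strands, were TTTCCCGC, TTTCGCGC, TTTGCCGC and TTTGGCGC, which occurred in a window of 4 of the 9 genes. These were DNMT1, UHRF1, HELLS and EZH2, the genes that fell with both hairpins, and no window of DNMT3A, DNMT3B or the TET genes held these letters. By comparison 3.99% of 27305 genes with a window had a match, 6.77% of 9088 tested genes and 56.7% of 30 S phase genes. The stretches that hold the matches are printed 5′ to 3′ on the strand of the gene, from 150 bases before to 20 after the start, with the E2F-type letters or their reverse complement in capitals.
DNMT1: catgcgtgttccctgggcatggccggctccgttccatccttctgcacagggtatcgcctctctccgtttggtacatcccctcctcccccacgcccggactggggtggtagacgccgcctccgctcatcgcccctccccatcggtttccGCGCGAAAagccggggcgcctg
UHRF1: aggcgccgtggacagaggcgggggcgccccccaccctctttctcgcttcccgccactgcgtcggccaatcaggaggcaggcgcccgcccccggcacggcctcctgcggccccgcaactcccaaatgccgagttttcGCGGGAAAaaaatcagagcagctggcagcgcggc
HELLS: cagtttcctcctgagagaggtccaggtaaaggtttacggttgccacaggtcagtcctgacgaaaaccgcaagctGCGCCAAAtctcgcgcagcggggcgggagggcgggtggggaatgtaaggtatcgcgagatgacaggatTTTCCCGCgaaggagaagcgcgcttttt
EZH2: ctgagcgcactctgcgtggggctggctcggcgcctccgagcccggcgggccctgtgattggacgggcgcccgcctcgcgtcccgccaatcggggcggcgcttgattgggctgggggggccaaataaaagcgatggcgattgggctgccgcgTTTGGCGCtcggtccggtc
They lie at chr19:10194934-10195103 (minus strand), chr19:4909351-4909520 (plus strand), chr10:94545638-94545807 (plus strand) and chr7:148884272-148884441 (minus strand). In all 4 a match lies within 14 bases of the start or across it. UHRF1 has 3 annotated starts and EZH2 has 2, and the match is given for 1 of them, while another start of UHRF1 has a match 160 bases before it. A match is a run of letters and not a measured binding site, and no match says only that these letters are not in the window. The NF-Y-type letters CCAAT were in 6 of the 9 genes, against 43.3% of tested genes and 73.3% of S phase genes, and the CHR letters TTTGAA in 2 of the 9, against 13.5% and 13.3%. A G-quadruplex pattern, of 4 runs of at least 3 G spaced by 1 to 7 bases on either strand, was found in 7 of the 9 genes (all but DNMT1 and TET2), against 40.7% of tested genes and 33.3% of S phase genes. It was in 4 of 6 windows of DNMT3A, 2 of 3 of UHRF1, 1 of 3 of TET1 and 1 of 2 of TET3. Both windows of EZH2 and the only window of HELLS and of DNMT3B held it. For every motif a gene counts when any window matches, so genes with more windows have more chances. The 27305 genes had 35116 windows, and 25% of these held the pattern. Enrichment was not tested.

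**Figure D5:**
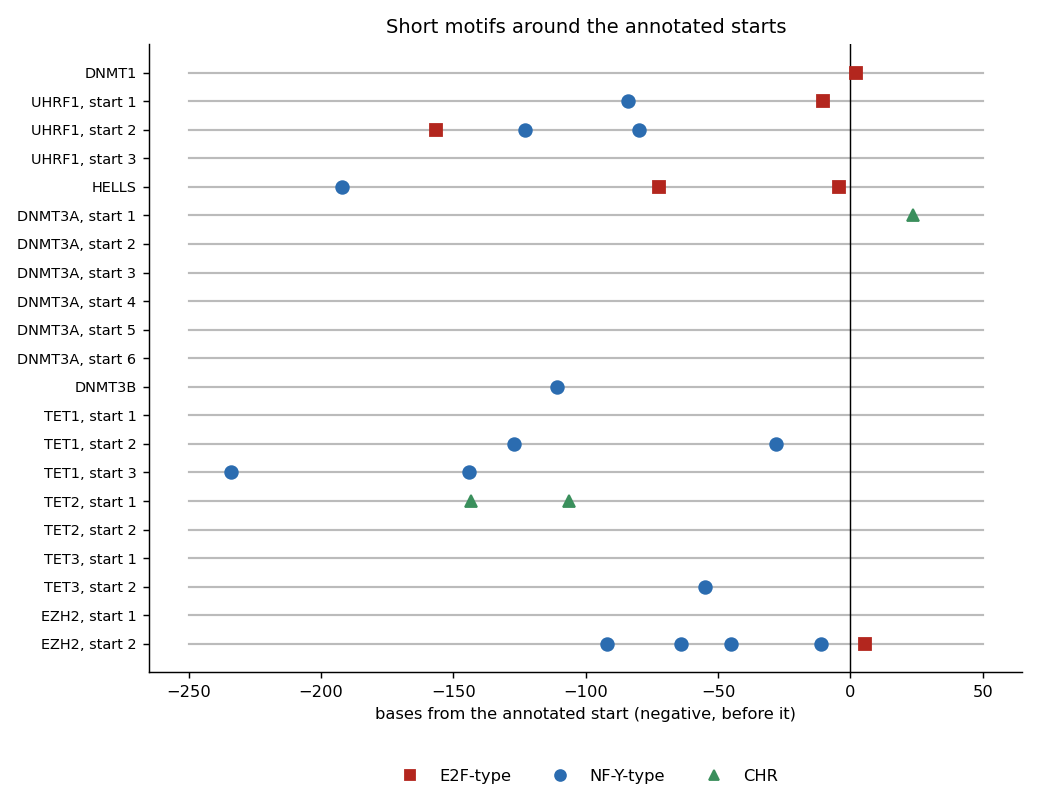
Positions of E2F-type, NF-Y-type and CHR letters (squares, circles and triangles) in bases from the annotated start (horizontal axis) for every RefSeq start of the 9 genes (vertical axis). Squares occur for DNMT1, UHRF1, HELLS and EZH2 alone among the 9, mostly near the start, whereas circles occur in both genes that fell and genes that did not, and triangles only for DNMT3A and TET2.

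The other factors of DNA methylation were mixed. At an adjusted p under 0.05, 32.9% of all tested genes were higher and 41.5% lower with shTRIB3-1, and 35.4% and 40.5% with shTRIB3-2. These shares stand beside the counts of this list and of those below. Of 19 factors tested, 5 rose and 12 fell with shTRIB3-1, and 5 rose and 10 fell with shTRIB3-2, with median log2 fold changes of -0.19 and -0.14. The 2 largest falls were those of PCNA, the sliding clamp to which DNMT1 binds, at -1.60 and -1.96, and of CDCA7, the partner of HELLS, at -1.59 and -2.45. Both also belong to the S phase list. UHRF2, the paralogue of UHRF1, rose by log2 values of 0.16 (adjusted p = 0.0326) and 0.20 (adjusted p = 0.0104), from 8.60 FPKM in shCtrl. GADD45A, a stress protein that has been linked to demethylation, rose by log2 values of 0.96 and 1.18, from 45.1 to 48.6 FPKM in shCtrl to 103 to 107 in shTRIB3-2. DNMT3L, a catalytically inactive partner of DNMT3A and DNMT3B that is normally confined to germ and embryonic cells, was near 0 in shCtrl, with 0 to 2 fragments per library. It was at 1.22 to 1.57 FPKM in shTRIB3-1, on 58 to 76 fragments, and at 0.0414 to 0.411 FPKM in shTRIB3-2, on 2 to 20 fragments. DNMT3L was tested only through the shTRIB3-1 libraries, where it is high, and its log2 fold changes of 3.60 and 1.41 depend on the value added to FPKM.

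The proteins that read or erase the mark moved little as groups. Of 8 methyl-CpG readers, 2 rose and 2 fell with shTRIB3-1, and 3 rose and 4 fell with shTRIB3-2. ZBTB4, a zinc finger repressor, rose by 0.92 and 1.16 on the log2 scale, and MBD3, of the NuRD complex, fell by 0.55 and 0.59. Of 14 tested genes of the TET pathway and of repair of oxidised cytosine, 1 rose and 8 fell with either hairpin. D2HGDH, which clears 2-hydroxyglutarate, an inhibitor of TET enzymes, fell by 1.04 and 1.17, and XRCC1, a repair scaffold, by 0.91 and 1.27. TDG, the glycosylase that excises oxidised cytosine, rose by log2 values of 0.18 and 0.41. In the cycle of S-adenosylmethionine, the methyl donor of these enzymes, 10 of 14 genes fell with shTRIB3-1, and 8 fell and 1 rose with shTRIB3-2. Of all tested genes, 41.5% were lower with shTRIB3-1 and 40.5% with shTRIB3-2. MAT1A, the hepatic enzyme that makes the donor, fell by 0.88 and 0.86, and CBS, which draws homocysteine out of the cycle, by 0.67 and 0.94.

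Among the core subunits of PRC2, SUZ12 and EED fell less than EZH2. SUZ12 fell by 0.49 and 0.40 on the log2 scale, with adjusted p = 5.7e-07 for shTRIB3-1 and 3.15e-06 for shTRIB3-2. EED fell by 0.47 and 0.48, with adjusted p = 2.53e-05 and 1.82e-05. RBBP4 fell by 0.64 and 0.57, the former close to the 0.71 of EZH2 with shTRIB3-1, and RBBP7 by 0.23 and 0.18. Of 13 other PRC2 subunits tested, 5 rose and 7 fell with shTRIB3-1, and 4 rose and 8 fell with shTRIB3-2. The accessory subunits of the Polycomb-like family went opposite ways, as PHF19 fell by 1.38 and 1.64 and PHF1 rose by log2 values of 0.56 and 1.00. EPOP fell by 0.68 and 1.22. The demethylases of the same histone mark, KDM6B and KDM6A, rose by log2 values of 0.81 and 0.75 and of 0.23 and 0.23. Of 18 PRC1 subunits, 5 rose and 9 fell with shTRIB3-1, and 5 rose and 8 fell with shTRIB3-2. In the neighbouring H3K9 methylation system, 8 of 10 genes fell and 1 rose with either hairpin, with SUV39H1 at -1.01 and -1.63 and EHMT2 at -0.98 and -1.07. Over all tested genes the shares lower were 41.5% with shTRIB3-1 and 40.5% with shTRIB3-2, and the shares higher were 32.9% and 35.4%. Of 4 H3K36 methyltransferases tested, 3 fell with either hairpin, with NSD2 at -0.50 and -0.49.

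Genes that these marks commonly silence were read last. Of 44 cancer-testis and germline genes listed, 31 were in the table and 5 passed the expression filter, of which 2 rose and 1 fell with shTRIB3-1, and 3 rose and 1 fell with shTRIB3-2. SPANXB1, a sperm protein gene of the X chromosome, was at 0.177 to 0.480 FPKM in shCtrl, on 3 to 8 fragments, at 26.2 to 34.6 FPKM in shTRIB3-1 and at 4.25 to 4.96 FPKM in shTRIB3-2. MAGEB2, also on the X chromosome, had 1 to 2 fragments in a control library, 122 to 138 under shTRIB3-1 and 5 to 12 under shTRIB3-2. The libraries of shTRIB3-1 lay above those of shTRIB3-2 for both genes. The SPANX genes are near-identical copies, so the share of fragments given to each of them, SPANXB1 included, is uncertain. MAGEB2 passed the expression filter only through the shTRIB3-1 libraries and SPANXB1 only through the knockdown libraries, so their rises are given as a description. Of the 26 listed genes under the filter, 5 passed the call thresholds as higher with shTRIB3-1 in a limma fit to all genes above 0, and they were named after their values were seen. These were SSX1, SPANXA1, SPANXC, SPANXD and CT45A1, all on the X chromosome, with at most 15 fragments in a library of shTRIB3-1, at most 2 in one of shTRIB3-2 and at most 1 in a control library. In the same fit, 1999 of all 24204 genes were called in either direction with shTRIB3-1. That number includes both directions and genes that passed the filter, so it is not a like share for these 5, which are given as a description. With shTRIB3-2, 0 of the 26 listed genes were called higher and 1 lower.

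Imprinted genes, which are controlled in part by DNA methylation, went both ways. With shTRIB3-1, 9 of 15 tested were higher and 5 lower, and with shTRIB3-2, 9 were higher and 4 lower. NAP1L5, counted as higher with both hairpins, was at 0.364 to 0.589 FPKM in shCtrl. It passed the filter only through the knockdown libraries, where it is high. Of all tested genes, 32.9% were higher and 41.5% lower with shTRIB3-1, and 35.4% and 40.5% with shTRIB3-2. PHLDA2 rose by log2 values of 1.63 and 1.29, and PEG3 fell by 1.69 and 1.51. Of 41 HOX and CDKN2 genes listed, the classic targets of PRC2, 29 were in the table and 6 passed the filter. CDKN2B, an inhibitor of the kinases CDK4 and CDK6, went from 0.645 to 0.899 FPKM in shCtrl to 4.80 to 5.24 FPKM in shTRIB3-1 and 4.42 to 5.25 FPKM in shTRIB3-2, at log2 fold changes of 2.53 and 2.43. It passed the filter only through the knockdown libraries, where it is high. HOXD4 and HOXD1 went the other way, falling by 2.73 and 2.41 and by 2.24 and 2.30 on the log2 scale. DNA methylation and histone methylation were not measured in these libraries.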

How the data were processed

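Deposited values were FPKM, computed by the authors per gene symbol in each of 9 libraries. Per the study, STAR aligned the reads to GRCh38 and DESeq2 tested them, and the submitters' processing notes list HTSeq and R 3.2.0. The annotation release and strand setting are not given in the sources used here, and library kits differ between labels and methods. FPKM carries no correction for composition. Whole fragments were recovered: of 172769 FPKM values above 0, 100% lay within 0.02 of a whole number. Replicate pairs differed beyond sampling noise (chi-square per degree of freedom 3.13 to 7.54).

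Genes with FPKM of at least 1 in at least 3 of 9 libraries were tested with limma 3.58.1 (R 4.3.3) on log2(FPKM + 0.1), which understates changes at low FPKM, with 3 group means, a mean-variance trend, two-sided p-values and Benjamini-Hochberg adjustment over 11265 genes. Calls needed an adjusted p under 0.05 and an absolute log2 fold change above 1. The script was tested on simulated data. Alternatives were pseudocounts of 1 and 0.01, other filters, TPM, median centring, quantile normalization, limma-voom on recovered fragments, a replicate block, fits to 2 groups and leaving out each library. Members and lists were chosen with earlier results of these data known. From other lists, the 2 largest rises and falls shared by both hairpins could be named, while EZH1, EED, SUZ12, RBBP4, RBBP7 and UHRF2 were chosen after their values were seen. Exons of other genes on the same strand cover at most 3.08% of the exons of any of the 9 genes, and none lies antisense. A marker of another lineage is not reported here.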

Additional observations from a re-analysis of the deposited data

Results flagged for a closer look

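The hairpins differed in size of effect for 8 of the 9 genes by the direct limma comparison of shTRIB3-2 with shTRIB3-1, beside 45.8% of all tested genes at an adjusted p under 0.05. The log2 differences were -0.30 for DNMT1, -1.57 for UHRF1, -0.57 for HELLS and -0.55 for EZH2, all of which had fallen further with shTRIB3-2, the hairpin that left less TRIB3. They were 0.37 for TET2 and 0.22 for TET3, which had risen further with it, and 0.22 for DNMT3A, which had passed the test with neither hairpin. For DNMT3B the difference was -0.55, and here the hairpins went opposite ways in all 3 libraries each. Whether the size of effect follows the TRIB3 level left or another difference between the hairpins was not tested.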

How the results depend on the processing

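None of the 9 genes changed sign in any alternative in which it was tested, and the numbers called at 3 with shTRIB3-1 and 4 with shTRIB3-2 were the same in all 19 alternatives. Between the hairpins the number called went from 1 to 0 (lower, 0) with a pseudocount of 1, by construction a scale that compresses low values. Genes higher at an adjusted p under 0.05 with shTRIB3-1 numbered 4, but 2 with an FPKM minimum of 5 (fewer genes tested), 2 as TPM and 2 to 4 when 1 library was left out, the lowest without library 1 of shTRIB3-1. With shTRIB3-2 they numbered 2, but 1 with the FPKM minimum of 5 and 4 with median centring or quantile normalization, which added DNMT3A and TET1. Between the hairpins they numbered 3, but 1 with the FPKM minimum of 5. Beyond the filter the cause was not tested. The median log2 fold change of the 5 cancer-testis genes was 0.20 with shTRIB3-1. It ran from -0.051 to 0.2708 when 1 library was left out, below 0 without any 1 library of shTRIB3-1 (fewer genes passing the filter). With the FPKM minimum of 5 it was 3.305. The median of 0.36 with shTRIB3-2 was -0.0768 after quantile normalization, 0.092 without any 1 library of shTRIB3-1, 0.0023 with all genes above 0 and 2.0459 with the FPKM minimum of 5. The median of this list is therefore not firm. Over all lists outside the 9 genes and all alternatives, 81 medians with shTRIB3-1 and 47 with shTRIB3-2 moved by at least their SD between libraries. The sign reversed in 3 and 1, and 182 and 218 stayed within that SD. Over all tested genes, the numbers called (1294 with shTRIB3-1, 1389 with shTRIB3-2 and 234 between the hairpins) were 780, 888 and 84 with a pseudocount of 1 and 745, 801 and 126 with the FPKM minimum of 5, and with all genes above 0 they were 1999 for shTRIB3-1 and 417 between the hairpins. Replicate numbers were not taken to pair the libraries, as the labels name nothing shared and no same-number correlation of deviations passed 0.1: these ran from -0.0742 to 0.0933, with 0.0933, 0.0603 and 0.0279 between the knockdown groups. In 12 of 18 cases the best match in another group had the same number, a hint from the data and not the design. With the replicate block, 688 tested genes were called lower with shTRIB3-1 instead of 687, and the calls among the 9 genes did not change. UHRF1 rested on 76 to 90 fragments in shTRIB3-2, and its log2 fold change ran from -4.16 with limma-voom to -2.67 with a pseudocount of 1.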
